A study of Mus musculus with 12 samples.

Results

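The Schlafen (Slfn) genes encode a family of proteins that macrophages and lymphocytes raise when they sense microbes or type I interferon. The family has short members (Slfn1 and Slfn2), members of intermediate length (Slfn3 and Slfn4) and long members with a helicase-like region (Slfn5, Slfn8 and Slfn9). Several Schlafen proteins bind or cleave transfer RNA or restrict virus replication, and Slfn2 is needed in mice for T cells and monocytes to stay quiescent and survive. The members described here are the non-control probes whose gene name on the array is Slfn1, Slfn2, Slfn3, Slfn4, Slfn5, Slfn8 or Slfn9. That rule, which uses no measured value, found 9 probes of 7 genes among 55681 probes and 36282 distinct gene or feature names.

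RNA came from RAW264.7, a mouse macrophage line, in 4 groups of 3 arrays: an siRNA to lincRNA-Tnfaip3 with LPS, a control siRNA with LPS, the siRNA to lincRNA-Tnfaip3 without LPS, and the control siRNA without LPS. All cells were exposed to an siRNA for 24 h, the control being a non-specific scrambled one. They were then kept for 4 h, either without LPS or in 1 µg/ml of LPS from E. coli. LPS, from the outer membrane of Gram-negative bacteria, is recognised by macrophages via TLR4. No probe on the array bears the name of the siRNA's target, so the groups say which siRNA was given and not how far the target fell. Whether arrays of a group stand for separate cultures is not said in the labels, so the p-values reflect only how far these arrays scatter, part of which may be technical.

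A level below is the log2 of a probe's processed signal minus the log2 of the 75th percentile of that array, so that 0 is a signal equal to that percentile. The percentile lay between 312 and 478 across the arrays. Probes well above background numbered 27198 and 29462 on arrays 1 and 2 of the control siRNA without LPS and 32708 to 36367 on the others. Those 2 arrays made up slide 1. Slide 3 held arrays 2 and 3 of LPS-treated lincRNA-siRNA cells, and the other 8 arrays shared slide 2. A comparison within a slide therefore rests on slide 2, where the control siRNA without LPS and the lincRNA siRNA with LPS have 1 array each, assumed to vary like the other groups. All 10 macrophage markers examined, among them Csf1r and Adgre1, were well above background on all 12 arrays, and Epcam, Cdh1, Pdgfra, Tek, Klrb1c, Cd3g and Ms4a1, which mark other cell types, on 0. Of the other T and B cell markers, Cd3e, Cd4, Lck, Cd79a and Cd79b were well above background on all 12 arrays. In bulk RNA, fewer cells that express a gene and less of its RNA per cell cannot be told apart.

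Most of the family was measurable in these cells. The probes of Slfn2, Slfn3 and Slfn4 and both probes each of Slfn8 and Slfn9 were well above background on all 12 arrays. The Slfn5 probe was so on 9 arrays, namely all 6 with LPS, 2 of the lincRNA siRNA without LPS and 1 of the control siRNA without LPS. The Slfn1 probe was well above background on 1 array, the second of the control siRNA with LPS, and was not tested. Thus 8 of the 9 probes and 6 of the 7 genes entered the tests, which covered 23890 features.

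**Figure D1:**
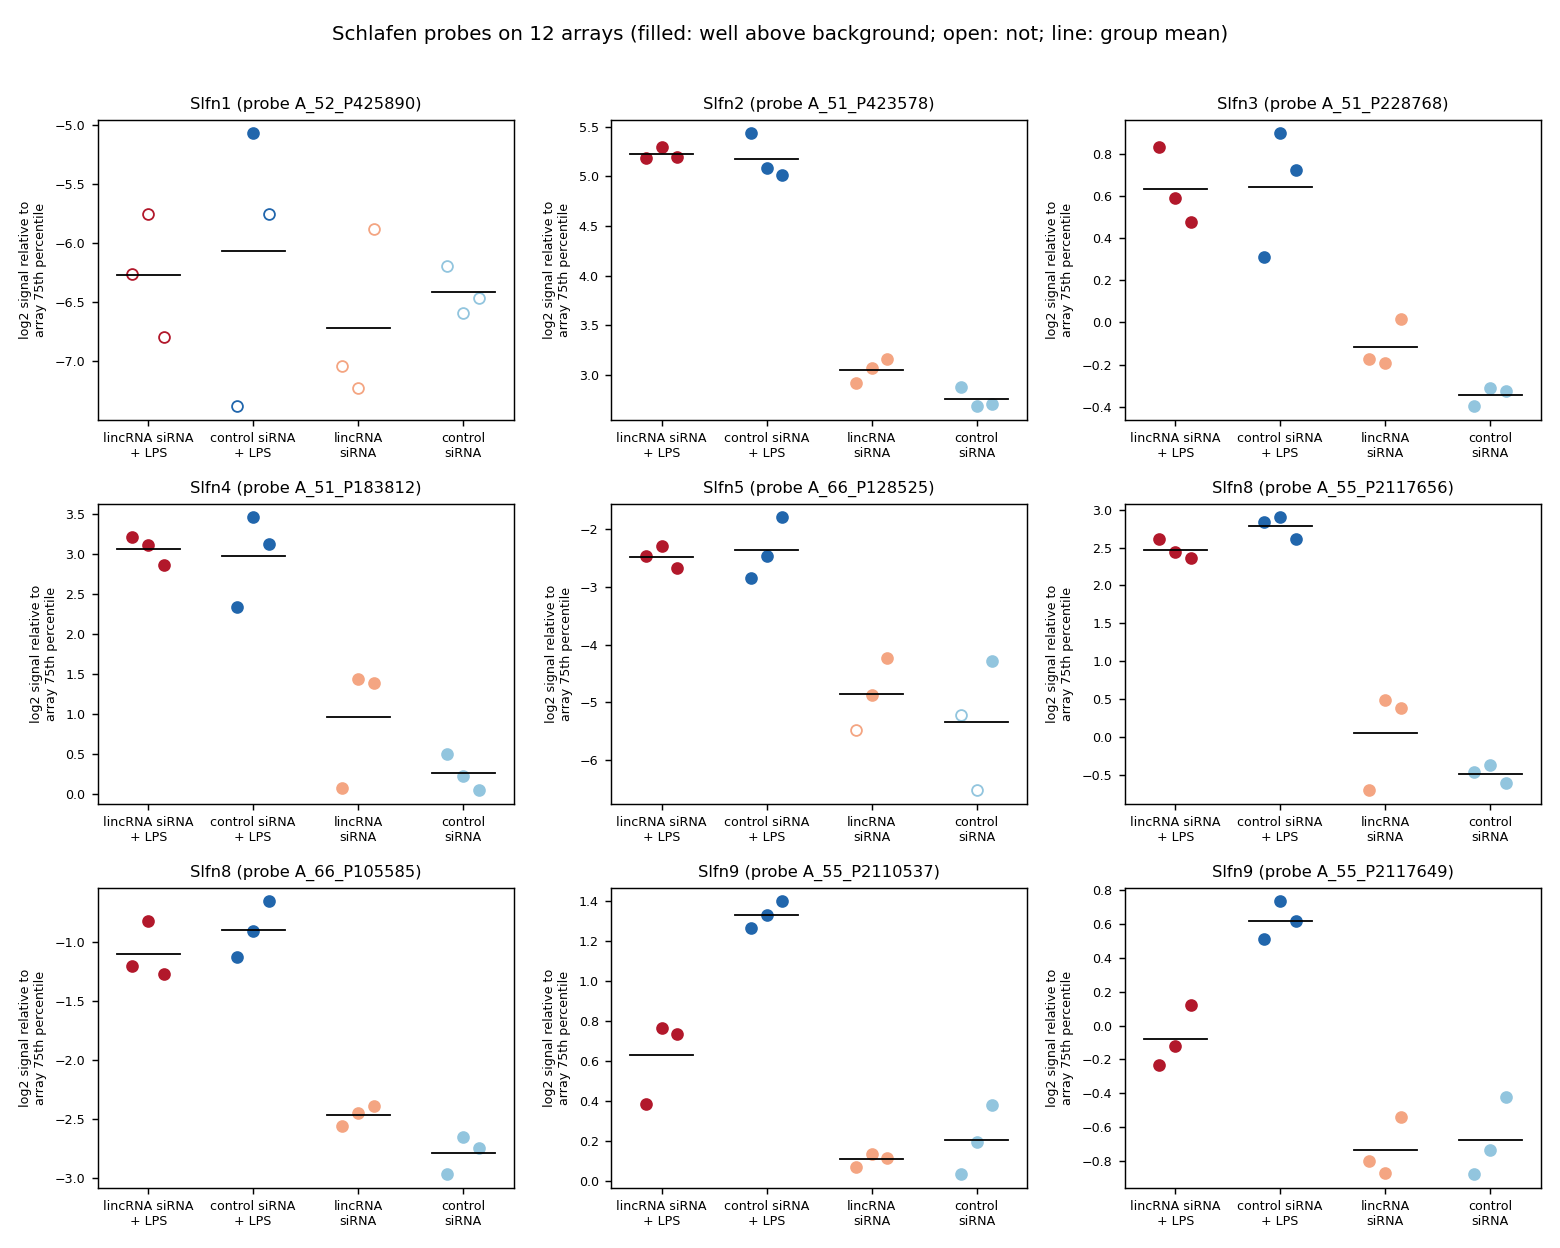
Level of each of the 9 Schlafen probes on the 12 arrays (y axis, log2 signal relative to the array's 75th percentile, with a separate range per panel); points are arrays, lines are group means of 3 arrays, and open points were not well above background. Apart from Slfn1, the 6 arrays with LPS lie above the 6 without LPS in each panel. For Slfn9 probe A_55_P2110537 this is narrow, with a lowest level of 0.385 with LPS and a highest of 0.379 without LPS. The share of all probes separated in this way was not counted.

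The probes are oligonucleotides of 60 bases, and all 9 lie on chromosome 11 (mm9) within 254 kb. The Slfn8 and Slfn9 genes are close relatives, and 1 probe of each shares a run of bases with the other, so these probes may not read the genes separately. The following stretches of 30 bases, bases 6 to 35 of the Slfn8 probe A_55_P2117656 (chr11:82815804-82815863, minus strand) and bases 18 to 47 of the Slfn9 probe A_55_P2117649 (chr11:82793914-82793973, minus strand), show that run of 19 bases in capitals.
Slfn8 probe: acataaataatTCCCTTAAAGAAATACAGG
Slfn9 probe: acataagtaacTCCCTTAAAGAAATACAGG
Including this run, the 2 probes were identical at 33 of 35 bases in a local alignment, so lower-case bases can match too. No other pair of the Schlafen probes shared a run of more than 9 bases. Each of these genes has another probe without the run, at chr11:82830985-82831044 for Slfn8 and chr11:82793812-82793871 for Slfn9, and the levels of both probes are given in the paragraphs on Slfn8 and Slfn9. How much signal the relatives share was not tested.

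The first comparison asked how the family responded to LPS in cells given the control siRNA. All 6 members tested rose, by 0.99 to 3.27 on the log2 scale. Slfn8 (on its brighter probe), Slfn4 and Slfn2 rose by 2.42 or more, and Slfn9 and Slfn3 by about 1 log2 unit. Slfn5 was mostly below background without LPS. Its mean with LPS was higher by at least 3.75-fold, a bound that allows for background but not for scatter among arrays. The test was limma's moderated test with Benjamini-Hochberg adjustment over all 23890 features, of which 5.15% passed in either direction and 3.26% as higher. The median change of the 6 members was 2.57, against 0.06 over all features. The fitted spread is shared by all 12 arrays, and every error of a change is its standard error with 3 arrays per group.

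Slfn2, the short member, had levels of 5.43, 5.09 and 5.02 on the arrays with LPS, against 2.88, 2.69 and 2.71 without LPS. The groups were far apart and each was tight, and LPS raised Slfn2 by 2.42 ± 0.13, or 5.34-fold (adjusted p = 1.13e-05). Within slide 2 the change was 2.47 (adjusted p = 0.0307), and Slfn2 was the 1 member that passed there. Slfn1, the other short member, had levels of -7.38, -5.07 and -5.75 with LPS and of -6.20, -6.59 and -6.47 without LPS, and the groups overlapped. Only the second array with LPS was well above background, so the other levels are bounds.

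Of the members of intermediate length, Slfn4, which is abundant in myeloid cells, had levels of 2.33, 3.46 and 3.12 with LPS, against 0.50, 0.22 and 0.04 without LPS. It rose by 2.72 ± 0.38, or 6.57-fold (adjusted p = 0.00285), with a wider spread among the LPS arrays than Slfn2. Slfn3 had levels of 0.31, 0.90 and 0.72 with LPS, against -0.40, -0.31 and -0.32 without LPS. Its rise was 0.99 ± 0.16, or 1.98-fold (adjusted p = 0.00593), so the pair of genes next to each other on the chromosome differed in the size of their response. The 95% confidence intervals, 1.87 to 3.56 for Slfn4 and 0.64 to 1.33 for Slfn3, did not overlap. Within slide 2 the changes were 2.93 for Slfn4 (adjusted p = 0.274) and 0.97 for Slfn3 (adjusted p = 0.342).

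Among the long members, Slfn8 had levels of 2.84, 2.90 and 2.62 with LPS, against -0.47, -0.38 and -0.62 without LPS on its brighter probe. The rise was 3.27 ± 0.27, or 9.66-fold (adjusted p = 0.000134). Its other probe had levels of -1.12, -0.90 and -0.65 with LPS, against -2.97, -2.66 and -2.75 without LPS, a rise of 1.90 ± 0.16 when every kept probe was fitted as its own feature. Both Slfn8 probes thus separated the groups, but the size differed, with intervals of 2.67 to 3.87 and 1.54 to 2.26. The larger change belongs to the probe that carries the shared run, at base 3807 of its transcript, and the smaller one to the probe at base 326. Within slide 2 the Slfn8 change was 3.40 (adjusted p = 0.0845).

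Slfn9 had levels of 1.26, 1.33 and 1.40 with LPS, against 0.03, 0.20 and 0.38 without LPS, on the brighter of its probes. It rose by 1.13 ± 0.13, or 2.18-fold (adjusted p = 0.000786). The Slfn9 probe that carries the shared run had levels of 0.51, 0.73 and 0.61 with LPS, against -0.88, -0.73 and -0.42 without LPS, a rise of 1.30 ± 0.15. The Slfn9 probes gave rises of similar size. The interval of the brighter Slfn9 probe (0.84 to 1.41) lay below those of both Slfn8 probes, and that of the other (0.95 to 1.64) lay below that of the brighter Slfn8 probe. Within slide 2 the Slfn9 change was 0.95 (adjusted p = 0.0741).

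Slfn5, whose human counterpart restricts herpesviruses, was the dimmest member tested. Its levels were -2.85, -2.46 and -1.80 with LPS, against -5.22, -6.52 and -4.27 without LPS, where the third array alone was well above background. The fitted change was 2.97 ± 0.52 (adjusted p = 0.0106). Set against the lowest signal well above background, the mean of Slfn5 was at least 3.75-fold higher with LPS. That bound does not allow for scatter among arrays. The call was lost without the third array of the control siRNA with LPS (2.68, adjusted p = 0.0559) and within slide 2 (1.91, adjusted p = 0.462), and normexp background correction gave a change of 0.80. For the other members no single array decided the call.

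**Figure D2:**
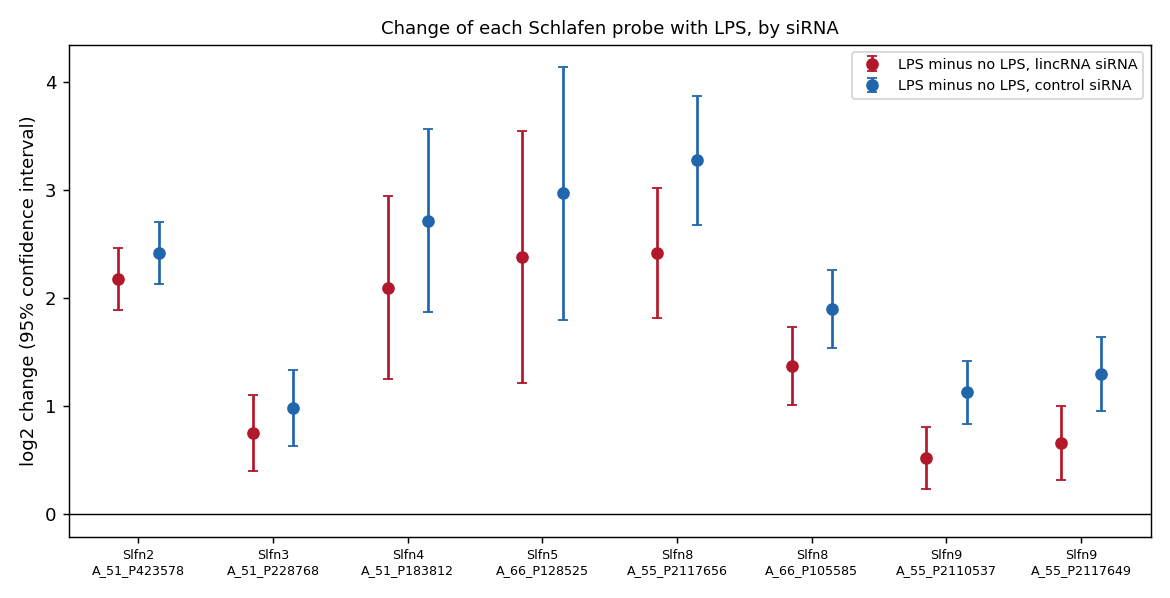
Change with LPS (y axis, log2, LPS minus no LPS) of the 8 Schlafen probes tested, in lincRNA-siRNA cells and in control-siRNA cells; points are estimates and bars 95% confidence intervals from the fit of every kept probe. All 16 intervals lie above 0. The point for lincRNA-siRNA cells is the lower of the pair for each probe. For Slfn5 this order turned round within slide 2, with 2.39 in lincRNA-siRNA cells and 1.91 in control-siRNA cells, and by 0.077 with normexp. Over all features the change in lincRNA-siRNA cells minus that in control-siRNA cells had a median of -0.04. The shares of all probes with such an interval or order were not counted.

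In cells given the siRNA to lincRNA-Tnfaip3, LPS raised 4 of the 6 members: Slfn8, Slfn2, Slfn4 and Slfn3. Of all features, 1.85% passed in this comparison, and 1.51% as higher. The median change of the 6 members was 2.14, against -0.01 over all features. Slfn5 and Slfn9 did not pass the test.

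Slfn2 had levels of 5.18, 5.30 and 5.20 with LPS, against 2.92, 3.07 and 3.16 without LPS, a rise of 2.17 ± 0.13, or 4.52-fold (adjusted p = 2.61e-05). Slfn8 had levels of 2.61, 2.44 and 2.37 with LPS, against -0.71, 0.49 and 0.38 without LPS, and rose by 2.42 ± 0.27, or 5.34-fold (adjusted p = 0.00116). The array without LPS that was lowest for Slfn8 was the first, and the arrays with LPS were close together. The other Slfn8 probe had levels of -1.20, -0.82 and -1.27 with LPS, against -2.56, -2.45 and -2.39 without LPS, a change of 1.37. Within slide 2 Slfn2 changed by 2.13 (adjusted p = 0.0389) and Slfn8 by 2.55 (adjusted p = 0.186).

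Slfn4 had levels of 3.20, 3.11 and 2.87 with LPS, against 0.07, 1.43 and 1.38 without LPS, and rose by 2.10 ± 0.38, or 4.28-fold (adjusted p = 0.0217). The adjusted p was 0.0852, 0.0845 and 0.0604 when array 1, 2 or 3 of LPS-treated lincRNA-siRNA cells was left out, and 0.511 within slide 2, where the change was 2.24. Slfn3 had levels of 0.83, 0.59 and 0.48 with LPS, against -0.18, -0.19 and 0.02 without LPS, and rose by 0.75 ± 0.16, or 1.68-fold (adjusted p = 0.0435). Slfn3 lay close to the threshold. Its call was kept without array 1 or array 2 of the control siRNA with LPS and lost without any other array, at changes of 0.65 to 0.83 and adjusted p of 0.0595 to 0.151. Within slide 2 the Slfn3 change was 0.95 (adjusted p = 0.389).

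Slfn9 had levels of 0.38, 0.76 and 0.74 with LPS, against 0.07, 0.14 and 0.12 without LPS, a difference of 0.52 ± 0.13 (adjusted p = 0.0921). The groups did not overlap, and of 24 alternatives the difference passed in 1, when array 1 of LPS-treated lincRNA-siRNA cells was left out (0.64, adjusted p = 0.0405). The other Slfn9 probe had levels of -0.23, -0.12 and 0.12 with LPS, against -0.80, -0.87 and -0.54 without LPS, a difference of 0.66. Within slide 2 the Slfn9 difference was 0.28 (adjusted p = 0.895). Slfn5 had levels of -2.47, -2.29 and -2.68 with LPS, against -5.48, -4.88 and -4.23 without LPS, a difference of 2.38 ± 0.52 (adjusted p = 0.0583). The first array without LPS was not well above background. Computed as above, the ratio of the group means was at least 4.90-fold, or 2.29 on the log2 scale. That bound does not allow for scatter among arrays, and the confidence interval of the fitted change, 1.21 to 3.55, reached below it. The bound is not comparable with the 3.75-fold of control-siRNA cells. Without LPS, 2 arrays were well above background here and 1 there. The fitted change was smaller here, 2.38 against 2.97. The Slfn5 difference passed without array 2 (adjusted p = 0.0188) or array 3 (adjusted p = 0.0278) of the control siRNA without LPS, and also with quantile normalization (2.32, adjusted p = 0.0418), the authors' value table (2.32, adjusted p = 0.0419) and normexp (0.87, adjusted p = 0.0242). Within slide 2 it was 2.39 (adjusted p = 0.333). Slfn1 had levels of -6.27, -5.75 and -6.80 with LPS and of -7.04, -7.23 and -5.88 without LPS, none of them well above background.

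**Figure D3:**
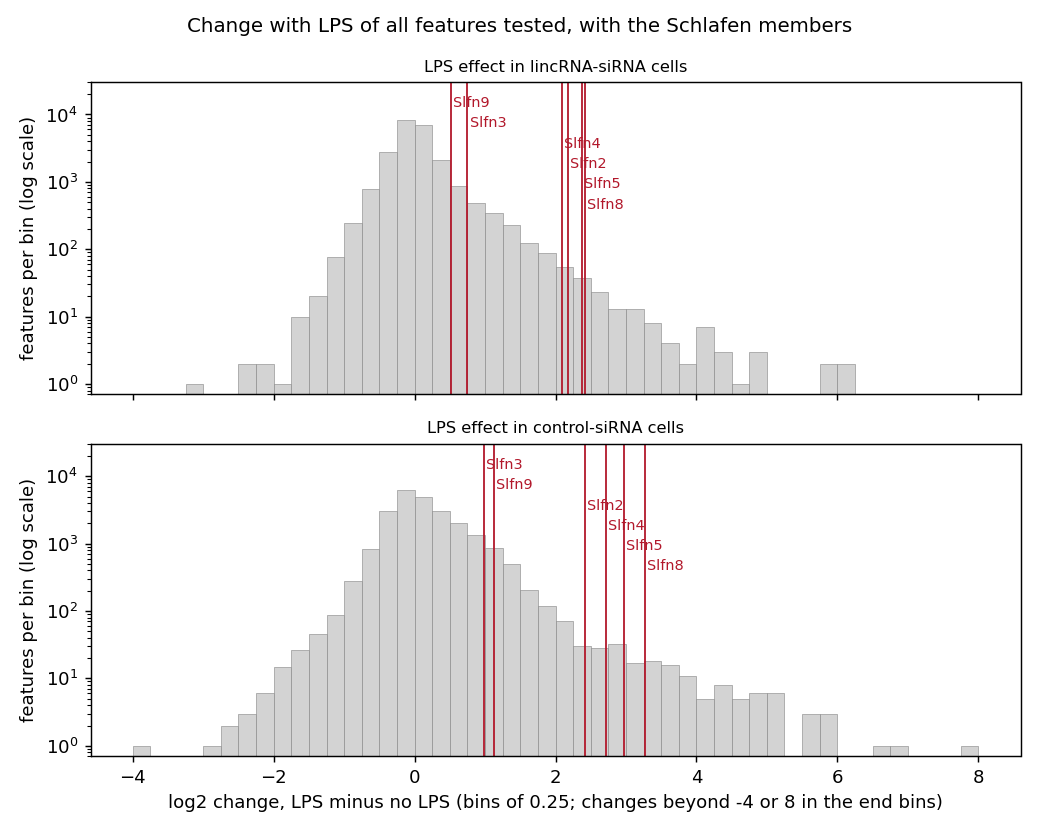
Histogram of the change with LPS (x axis, log2, in bins of 0.25) of the 23890 features tested (y axis, features per bin on a log scale), in lincRNA-siRNA cells above and in control-siRNA cells below; vertical lines mark the 6 Schlafen members. In both panels Slfn3 and Slfn9 stand nearest to the bulk of the features, and Slfn2, Slfn4, Slfn5 and Slfn8 lie between 2.10 and 3.27.

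The next comparison was between the siRNAs in LPS-treated cells. No member passed, nor did any of the 23890 features (0%) by limma with adjustment, while 4.64% of features and 1 of the 6 members had an unadjusted p under 0.05. The member was Slfn9. Its levels were 0.38, 0.76 and 0.74 with the lincRNA siRNA, against 1.26, 1.33 and 1.40 with the control siRNA. All 3 lincRNA-siRNA arrays lay below all 3 control-siRNA arrays, by a mean of -0.70 (95% confidence interval -0.99 to -0.42, adjusted p = 0.441). The brighter Slfn8 probe had the same order, and the share of all features separated in this way was not counted. The other Slfn9 probe gave the same difference of -0.70, with -0.23, -0.12 and 0.12 against 0.51, 0.73 and 0.61. Within slide 2, where the lincRNA siRNA with LPS has 1 array, the Slfn9 difference was -0.95 (adjusted p = 0.220). The adjusted p of Slfn9 stayed between 0.113 and 1.00 over 24 alternative settings.

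For the other members the difference between the siRNAs with LPS was small relative to its interval. Slfn2 differed by 0.05 (95% confidence interval -0.24 to 0.33) and Slfn3 by -0.01 (-0.36 to 0.34). For Slfn4 the difference was 0.09, with a wider interval of -0.75 to 0.94. Slfn8 differed by -0.31 (-0.91 to 0.28) on its brighter probe and by -0.20 on the other. The Slfn5 interval was the widest, -1.28 to 1.06 around -0.11. The intervals of Slfn4 and Slfn5 are wide, so a sizeable difference in either direction was not detectable for them with 3 arrays per group. For Slfn8 the interval was wide mainly below 0, so this holds there for a lower level with the lincRNA siRNA.

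**Figure D4:**
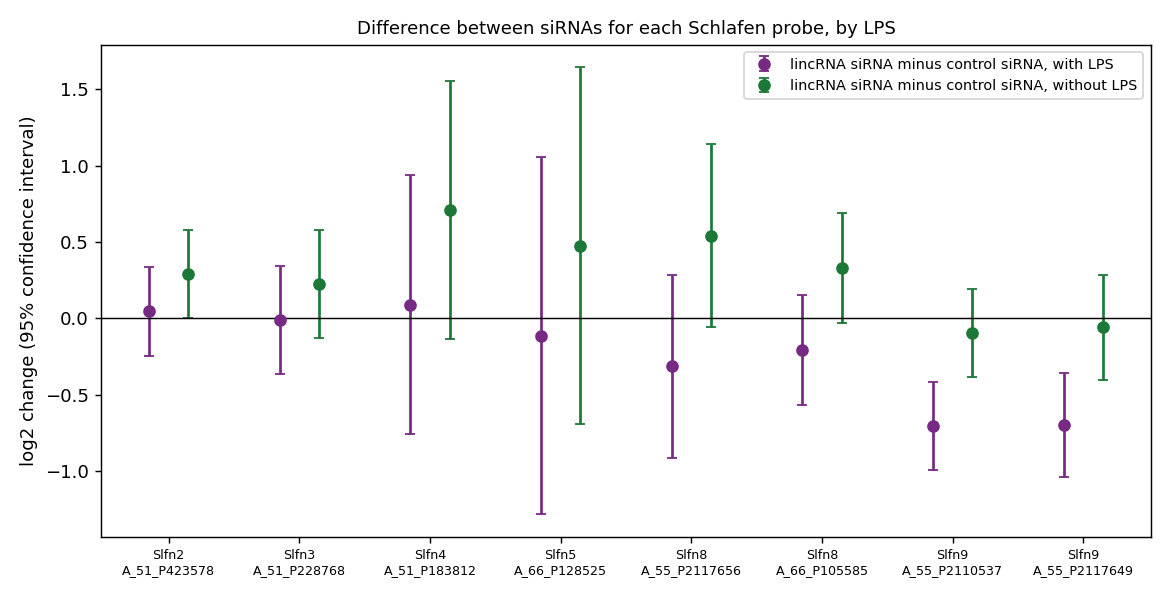
Difference between the siRNAs (y axis, log2, lincRNA siRNA minus control siRNA) for the 8 Schlafen probes tested, with LPS and without LPS; points are estimates and bars 95% confidence intervals from the fit of every kept probe. Both Slfn9 probes lie at -0.70 with LPS, and none of the differences passed adjustment over all probes.

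Without LPS, no member and no feature (0%) passed between the siRNAs, while 18.5% of features and 1 member, Slfn2, had an unadjusted p under 0.05. Slfn2 levels were 2.92, 3.07 and 3.16 with the lincRNA siRNA, against 2.88, 2.69 and 2.71 with the control siRNA, a difference of 0.29 (95% confidence interval 0.00 to 0.57, adjusted p = 0.266). Slfn3 differed by 0.23 (-0.12 to 0.57, adjusted p = 0.436), with all 3 lincRNA-siRNA arrays above the control-siRNA arrays. The same order held for Slfn2 and the dimmer Slfn8 probe. The share of all features separated in this way was not counted. Slfn9 differed by -0.10 (-0.38 to 0.19, adjusted p = 0.703), and the 3 lincRNA-siRNA arrays lay inside the range of the control-siRNA arrays. The other Slfn9 probe differed by -0.06. Slfn5, well above background on 2 lincRNA-siRNA arrays and 1 control-siRNA array, differed by 0.48 (-0.69 to 1.65, adjusted p = 0.637). Of the control-siRNA arrays, 2 made up slide 1, while all lincRNA-siRNA arrays lay on slide 2. Slide and siRNA thus cannot be fully told apart here. Within slide 2, where the control siRNA has 1 array, the differences were 0.34 for Slfn2, 0.21 for Slfn3 and 0.92 for Slfn4. They were 0.67 for Slfn8, -0.27 for Slfn9 and -0.59 for Slfn5.

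Slfn4 and the brighter Slfn8 probe, well above background on all arrays, had SDs of 0.77 and 0.66 over the lincRNA-siRNA arrays without LPS. Slfn4 levels were 0.07, 1.43 and 1.38 with the lincRNA siRNA, against 0.50, 0.22 and 0.04 with the control siRNA, a difference of 0.71 (95% confidence interval -0.14 to 1.55, adjusted p = 0.328). Slfn8 levels were -0.71, 0.49 and 0.38 with the lincRNA siRNA, against -0.47, -0.38 and -0.62 with the control siRNA, a difference of 0.54 (-0.06 to 1.14, adjusted p = 0.298). For both genes arrays 2 and 3 of the lincRNA siRNA lay above all control-siRNA arrays, and array 1 lay within or below them. The mean level of 24 other interferon-stimulated genes was -0.85, 1.36 and 1.56 on the same lincRNA-siRNA arrays, against -0.68, -0.11 and -0.64 on the control-siRNA arrays. Their part in the Slfn4 and Slfn8 values was not tested. The second Slfn8 probe showed less spread, with -2.56, -2.45 and -2.39 against -2.97, -2.66 and -2.75. Without array 1 of the lincRNA siRNA, which was the lowest for Slfn8, the Slfn8 difference was 0.92 and passed (adjusted p = 0.0229). In this comparison the features called ranged from 0 to 2608 depending on which single array was left out.

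The difference of differences asked whether LPS acted unequally under the siRNAs. It was below 0 for all 6 members, except that Slfn5 was at 0.077 with normexp and at 0.49 within slide 2 or with the slide as a fixed block, and at 0.00065 without array 2 of the control siRNA without LPS, and it passed for none of them, nor for any feature (0%; 3.75% at an unadjusted p under 0.05). It was -0.86 (95% confidence interval -1.70 to -0.01) for Slfn8, -0.61 (-1.01 to -0.21) for Slfn9, -0.62 (-1.81 to 0.58) for Slfn4, -0.59 (-2.24 to 1.07) for Slfn5, -0.24 (-0.65 to 0.16) for Slfn2 and -0.24 (-0.73 to 0.26) for Slfn3. The smallest adjusted p among the members was 0.891. Over all features the median difference of differences was -0.04. Of all features, 8.29% lay at or below Slfn8, 14.2% at or below Slfn4 and 31.2% at or below Slfn3. The second probes gave -0.53 for Slfn8 and -0.64 for Slfn9.

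The other genes of the response give the setting of these values. Among 5 type I interferon ligands and receptors tested, Ifnb1, which encodes interferon beta, rose with LPS, by 4.03 in lincRNA-siRNA cells and by 4.24 in control-siRNA cells, and the other 4 did not pass. Of 12 genes of interferon signal transduction, 5 rose in lincRNA-siRNA cells and 8 in control-siRNA cells, with median changes of 1.31 and 2.02. Irf1, an interferon-regulatory transcription factor, rose by 3.44 in lincRNA-siRNA cells and by 3.32 in control-siRNA cells. Socs1, a feedback inhibitor of the receptor's kinases, rose by 3.35 in lincRNA-siRNA cells and by 3.49 in control-siRNA cells. Usp18, another brake on the receptor, rose in control-siRNA cells by 4.91, and the difference in lincRNA-siRNA cells was 3.02 (adjusted p = 0.128).

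Of 24 other interferon-stimulated genes, 15 rose in lincRNA-siRNA cells and 23 in control-siRNA cells, with median changes of 2.91 and 4.54, and none fell. These medians stand above the Schlafen medians of 2.14 and 2.57. In the difference of differences 0 of the 24 passed. With LPS their mean level was 3.91 under the lincRNA siRNA and 3.90 under the control siRNA. Without LPS it was 0.69 (SD 1.34 over arrays) under the lincRNA siRNA and -0.48 (SD 0.31) under the control siRNA. Mx2, an antiviral GTPase, rose by 4.66 in lincRNA-siRNA cells and by 5.81 in control-siRNA cells. Of 11 genes of NF-kB and its targets, 7 rose in lincRNA-siRNA cells and 10 in control-siRNA cells, with medians of 1.09 and 1.34. Il6 rose by 6.01 in lincRNA-siRNA cells and by 6.85 in control-siRNA cells. Whether the Schlafen genes respond through interferon or NF-kB was not tested.

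Of 10 genes of transfer RNA cleavage and translation control tested, 1 rose with LPS in each siRNA, Eif2ak2, the interferon-induced kinase that halts translation, by 1.099 in lincRNA-siRNA cells and by 1.88 in control-siRNA cells. Of 12 genes of the cell cycle and quiescence, Cdkn1b, a cyclin-dependent kinase inhibitor, fell in both, with changes of -0.44 in lincRNA-siRNA cells and -0.66 in control-siRNA cells. Cdkn1a, a related inhibitor, rose by 0.56 in lincRNA-siRNA cells, and its change in control-siRNA cells was 0.39 (adjusted p = 0.0711). The other genes of both lists did not pass.

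The Schlafen genes lie in 1 cluster on chromosome 11 in the order Slfn5, Slfn9, Slfn8, Slfn10-ps, Slfn2, Slfn1, Slfn4, Slfn3 and Slfn14, per RefSeq (GRCm38.p6). Slfn10-ps, a pseudogene between Slfn8 and Slfn2, had levels of 3.12, 3.12 and 2.92 with LPS, against 1.62, 1.72 and 1.49 without LPS in control-siRNA cells. It rose by 1.45 ± 0.12 (adjusted p = 0.000142) there. In lincRNA-siRNA cells its rise was 1.05 ± 0.12 (adjusted p = 0.00153). The Slfn14 probe, named Slfn14-ps on the array, and Slfnl1, which lies on chromosome 4, were each well above background on 2 of the 12 arrays and were not tested. Within 250 kb of a member probe lay 40 other probes of 28 genes, of which 26 were kept. In control-siRNA cells 3 of these rose with LPS, namely Slfn10-ps, Gas2l2 by 1.11 and Rffl by 0.57, and 0 fell. The share of all kept probes that passed in that fit, in either direction, was 4.47%. The cluster thus held rising members on both sides of Slfn1, which was near or below background.

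**Figure D5:**
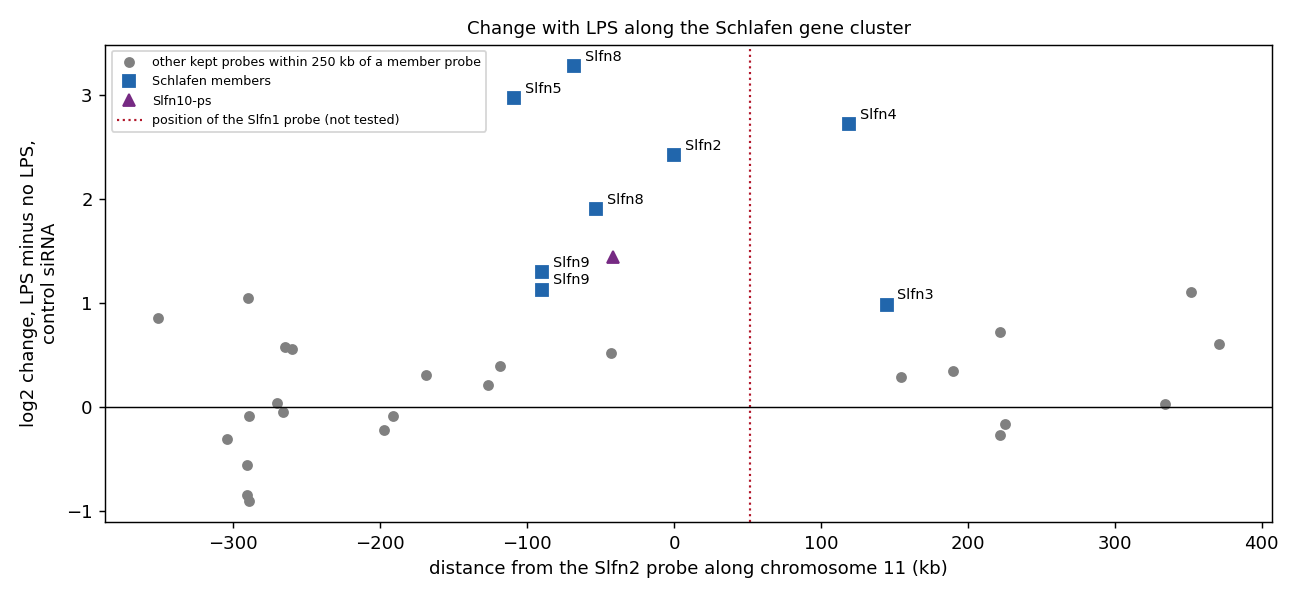
Change with LPS in control-siRNA cells (y axis, log2) against the distance of each probe from the Slfn2 probe (x axis, kb along chromosome 11); squares are Schlafen members, the triangle is Slfn10-ps, circles are other kept probes within 250 kb of a member probe, and the dotted line marks the Slfn1 probe, which was not tested. The Schlafen squares lie between 0.99 and 3.27, and of the circles 2 passed the test, Gas2l2 at 1.11 and Rffl at 0.57.

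The promoters of the members, as RefSeq windows of 250 bases before to 50 bases after the annotated start (GRCm38.p6), were searched on both strands for the core of the interferon-stimulated response element (GAAA, any 2 bases, GAAA), the site bound by STAT and IRF complexes. It was present in 3 of the 7 members, Slfn5, Slfn8 and Slfn9. By window this was 4 of the 8 windows of the members, against 3.44% of 32851 windows of the same length. A window of each of these 3 genes is printed because it holds the match, which is in capitals, and because Slfn8 and Slfn9 differ in their change with LPS.
Slfn8 promoter: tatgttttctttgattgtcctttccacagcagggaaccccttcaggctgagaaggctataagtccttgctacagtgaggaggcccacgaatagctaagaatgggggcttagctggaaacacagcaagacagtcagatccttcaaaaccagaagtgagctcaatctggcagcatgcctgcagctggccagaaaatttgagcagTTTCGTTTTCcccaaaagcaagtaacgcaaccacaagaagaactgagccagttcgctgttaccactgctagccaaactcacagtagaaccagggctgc
Slfn9 promoter: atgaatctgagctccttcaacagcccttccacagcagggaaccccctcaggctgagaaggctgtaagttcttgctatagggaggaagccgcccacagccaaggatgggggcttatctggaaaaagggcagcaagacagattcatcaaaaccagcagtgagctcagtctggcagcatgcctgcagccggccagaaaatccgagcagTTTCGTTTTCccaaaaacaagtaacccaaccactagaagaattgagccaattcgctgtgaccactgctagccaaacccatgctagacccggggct
Slfn5 promoter: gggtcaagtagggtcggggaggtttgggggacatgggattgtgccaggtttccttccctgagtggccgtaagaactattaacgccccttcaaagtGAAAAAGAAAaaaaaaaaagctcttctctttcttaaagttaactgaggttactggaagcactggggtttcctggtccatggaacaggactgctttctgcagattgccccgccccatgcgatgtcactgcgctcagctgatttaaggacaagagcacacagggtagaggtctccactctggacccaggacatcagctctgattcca
The windows are chr11:83020761-83021060 (minus strand), chr11:82991781-82992080 (minus strand) and chr11:82951852-82952151 (plus strand). In Slfn8 and Slfn9 the match reads GAAAACGAAA on the opposite strand, 48 to 39 and 45 to 36 bases before the start, and in Slfn5 it reads GAAAAAGAAA, 155 to 146 bases before the start. Slfn8 has a further annotated start whose window overlaps this one and holds the same match. The Slfn8 and Slfn9 windows were identical at 246 of 295 aligned bases (83.4%), so their matches do not count as independent. Of the genes with the match, Slfn8 changed with LPS in control-siRNA cells by 3.27 or 1.90, depending on the probe, and Slfn9 by 1.13 or 1.30. The mean of Slfn5 was at least 3.75-fold higher, a bound that does not allow for scatter among arrays. Of the tested genes without it, Slfn2 changed by 2.42, Slfn3 by 0.99 and Slfn4 by 2.72.

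Other motifs were searched in the same windows. A shorter form of the element, GAAANNGAA, which lies within every match of the core, was found in the same 3 members. By window this was 4 of their 8 windows, against 8.56% of all windows. The GAS element, TTCNNNGAA, was in 0 members and in 8.3% of windows. The AP-1 site, TGANTCA, was in Slfn4 and in 7.81% of windows. The PU.1 core, GAGGAA, was in Slfn9 and in 28.3% of windows, and the kB consensus was in Slfn1 and Slfn9 and in 8.46% of windows. A match here is a description of letters and not of binding.

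For each member tested, the genes most like it over the 12 arrays were found among 14873 gene symbols, by the root mean square difference after each gene was centred on its own mean. For Slfn2 the closest were Trex1 (0.17 log2 units), Tnfaip2 (0.20) and Fgr (0.20). For Slfn3 they were Irf8, Gm6377 and Cgas (0.13 each), for Slfn4 Phf11b (0.21), Helz2 (0.22) and Zfp975 (0.23), and for Slfn8 Isg20 (0.17), Gypc (0.22) and Ifi204 (0.22). For Slfn9 they were Tstd1 (0.19), Ahdc1 (0.21) and Lix1 (0.21), and for the dim Slfn5 Snai2 (0.47), Prkg2 (0.52) and Gypc (0.53). Between members the closest pairs were Slfn3 with Slfn9 (0.34) and Slfn4 with Slfn8 (0.38), and the farthest was Slfn5 with Slfn9 (1.11). Slfn8 and Slfn9, the relatives with similar promoters, differed by 1.09.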

How the data were processed

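Scanner output with spot intensity values was deposited. Per the file headers it was made with Agilent Feature Extraction 10.7.1.1 and gives a background-subtracted and detrended signal, the flags of each spot and probe positions on mm9. The authors also deposited log2 values whose 12 columns share a median of 4.75, with a normalization not given in the sources used here. They were used as an alternative. Each array had 59305 non-control spots of 55681 probes, 0 saturated and 104 to 258 flagged as outliers, which were left out (102 missing values among kept probes). Spots of a probe were averaged, log2 of the processed signal minus the array's 75th percentile was taken, and probes flagged well above background on every array of some group were kept (33132, or 59.5%). Per gene the kept probe with the highest mean was used; Slfn8 and Slfn9 were also tested by probe. By accession, 26582 probes matched RefSeq's GRCm38.p6 genes, and 2892 symbols were updated. Promoter windows came from RefSeq.

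Using limma 3.58.1 in R 4.3.3, the 4 group means were estimated jointly from the 12 arrays (8 residual degrees of freedom). The p-values were adjusted by the Benjamini-Hochberg method over 23890 features with a threshold of 0.05. The fits were tested on simulated data. Input was read with the R package data.table (version 1.17.8), alignments used biopython 1.88 in Python 3.11.15, and matplotlib 3.10.9 drew the figures. Where a probe was not well above background on every array of the dimmer group, its level there was replaced, per array below background, by the higher of its own signal and the lowest signal well above background, and the fold was written as "at least". Such a fold bounds the ratio of the group means and does not allow for scatter among arrays. The number of arrays limits the precision. Named genes were all members and other Slfn genes, the largest changes of each list that were well above background, the 3 genes most like each member, and neighbours that passed. The members and the lists were chosen with earlier results of these data known. Alternatives covered normalization, background correction, the filter, the probe per gene, slide and replicate blocks, array weights, and leaving out each array. Deviations of same-numbered arrays had a median correlation of 0.09 (-0.30 to 0.47 over 18 pairs). For differently numbered arrays it was 0.02 (-0.46 to 0.47 over 36 pairs). With 3 arrays per group this check cannot exclude pairing. The numbers were not taken to pair arrays, and the replicate block is given as an alternative. Protein sequences were not analysed here.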

Additional observations from a re-analysis of the deposited data

How the results depend on the processing

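All 6 members rose with LPS in control-siRNA cells under quantile normalization, normexp background correction, the authors' value table, no filter, the mean of the probes of a gene, slide as a random block, the replicate block and array weights. With slide as a fixed block 3 members passed and within slide 2 alone 1 did, on fewer arrays; leaving out 1 array gave 5 to 6. Features called there, 1231 in all, were 715 with no filter, 233 with slide as a fixed block, 42 within slide 2, 7396 with array weights, and 537 (without control siRNA with LPS 3) to 3975 (without control siRNA 3) on leaving out 1 array. In lincRNA-siRNA cells 4 members passed with LPS, and 2 with slide as a fixed block, 1 within slide 2 and 2 to 4 on leaving out 1 array; 443 features passed, 158 with slide as a fixed block, 45 within slide 2 and 246 to 470 on leaving out 1 array. The replicate block gave 6 members in control-siRNA cells and 3 in lincRNA-siRNA cells, where Slfn3 lost its call (adjusted p = 0.0931), and 5 of 12 arrays correlated best with their own number. Between the siRNAs with LPS, slide as a fixed block called 2 features and leaving out 1 array 0. Without LPS, array weights called 5620 features and 4 members (Slfn2, Slfn4, Slfn5 and Slfn8), normexp 3 features, the mean of probes 2, slide as a fixed block 1, and leaving out 1 array 0 to 2608 features and 0 to 1 members. For the difference of differences leaving out 1 array called 0 to 358 features and no member. Over 24 alternatives (23 for Slfn5), the rise in control-siRNA cells passed in 24 for Slfn2, 23 for Slfn8 and Slfn9, 22 for Slfn4 and Slfn3 and 20 for Slfn5. That in lincRNA-siRNA cells passed in 24 for Slfn2, 23 for Slfn8, 19 for Slfn4, 8 for Slfn3, 5 for Slfn5 and 1 for Slfn9. A filter of well above background on all 12 arrays dropped Slfn5. The cause of these shifts was not tested.

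The sign turned for some differences; the value with the turned sign did not pass in any of these settings. Between the siRNAs with LPS, Slfn2 was -0.015 with quantile normalization and -0.016 with the authors' value table. Slfn3 was 0.19 with slide as a fixed block and within slide 2 and 0.029 with slide as a random block, Slfn4 was -0.0071 with normexp, and leaving out 1 array gave -0.18 to 0.12 for Slfn3, -0.23 to 0.33 for Slfn4, -0.35 to 0.17 for Slfn5 and -0.036 to 0.17 for Slfn2. Without LPS, Slfn5 was -0.097 with normexp, -0.59 with slide as a fixed block and within slide 2, and -0.11 to 1.01 on leaving out 1 array. Its difference of differences was 0.077 with normexp, 0.49 with slide as a fixed block and within slide 2, and -1.12 to 0.00065 on leaving out 1 array.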
